A study of Sus scrofa with 9 samples.

Results

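The extracellular matrix of a fibroblast culture holds, besides collagens, glycoproteins and proteoglycans that form elastic fibres, bind cells, regulate collagen fibrils and line the cell surface. This class of genes was followed in porcine embryonic fibroblasts, which are connective tissue cells grown from pig embryos, after addition of insulin, the hormone that drives glucose uptake and anabolic metabolism. The genes were a written list of 59 symbols, grouped in 5 classes by known function. The list and its classes were chosen with earlier results of these data known. Of the 59, 57 were matched by symbol among the 30477 gene IDs measured. SDC4, a syndecan, and LAMA2, a laminin chain, were not matched and were not analysed here. The 0 h control libraries came from untreated cells. The others came from cells collected 48 h and 72 h after insulin was added. Each time had 3 libraries, which the submitters call biological replicates. All cells were thawed and cultured before insulin was added, per the series' design text, and neither the insulin dose, the medium nor the number of cell lines is stated in the labels. No untreated culture at 48 h or 72 h was analysed, so insulin and time in culture cannot be told apart in any comparison with 0 h.

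Elastic fibres consist of elastin laid on a scaffold of fibrillin microfibrils, and fibulins, EMILINs and latent TGF-beta binding proteins (LTBPs) attach to that scaffold. Small leucine-rich proteoglycans bind collagen fibrils and set their width and spacing, while basement membranes are sheets of laminin, nidogen and perlecan. Matricellular proteins such as thrombospondins, tenascins and the CCN family are secreted into the matrix but act mainly as signals on cells. Fibroblasts make most of these products and change the mixture between growth, repair and rest.

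Values are FPKM, the fragments of a gene scaled to its length and to the library. FPKM summed to 487858 to 497665 in the 0 h libraries, 524992 to 563656 at 48 h and 505022 to 525471 at 72 h. Read depth is unknown, since FPKM carries no counts, but the smallest values of a gene differed between libraries by a step that puts 48 h replicate 3 at a depth of 1.31 relative to 0 h replicate 1. Of 12 fibroblast markers 10 were matched, and their summed level was 22734 to 23743 FPKM at 0 h, 21636 to 22069 at 48 h and 22944 to 23646 at 72 h. The endothelial marker CDH5, the immune markers PTPRC and CD163 and the adipocyte markers ADIPOQ and LEP were listed at 0 in all 9 libraries. The epithelial marker EPCAM had means of 0 to 0.0533 FPKM. Summed levels at 0 h, 48 h and 72 h were 12.4 to 13.3, 4.60 to 5.02 and 3.78 to 5.27 FPKM for 9 endothelial markers, and 8.05 to 9.37, 14.2 to 14.9 and 10.9 to 12.3 for 6 epithelial markers. The 9 immune markers summed to 24.0 to 26.1, 25.8 to 27.5 and 26.1 to 28.9 FPKM. For 8 cartilage and bone markers the sums were 12.2 to 14.9, 14.2 to 17.6 and 18.5 to 19.7 FPKM, and for 8 skeletal muscle markers 26.0 to 26.8, 22.8 to 23.7 and 14.9 to 19.1. For 8 adipocyte markers they were 1.92 to 2.59, 2.17 to 2.68 and 1.95 to 2.54. The 7 neural markers summed to 176 to 182, 204 to 250 and 182 to 192 FPKM and the 5 tenocyte markers to 42.8 to 48.2, 21.9 to 26.6 and 98.5 to 117. The tenocyte list was SCX, TNMD, MKX, EGR1 and KERA. Of 4 tested, 0 rose and 1 fell at 48 h, and 3 rose and 0 fell at 72 h. Of all tested genes 22.4% fell at 48 h and 23.0% rose at 72 h. Log2 changes of the 4 ran from -1.67 to 0.83 at 48 h. From 48 h to 72 h they ran from 0.33 to 3.06 (median 0.56), so the sum did not stand for each marker. The 11 pericyte and smooth muscle markers summed to 7289 to 7434 FPKM at 0 h, 5485 to 6384 at 48 h and 5345 to 6036 at 72 h. All 7 of them that were tested fell at both times, against 22.4% of all tested genes at 48 h and 22.5% at 72 h. Of the 11, 4 had a mean below 1 FPKM over the 9 libraries, and RGS5, a defining pericyte gene, was near 0. The part of these marker levels in the results was not tested. In bulk RNA, fewer cells of a type and less RNA per cell cannot be told apart.

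Matrix glycoprotein and proteoglycan genes changed in both directions at both times. Decorin, lumican, osteoglycin, asporin, several fibulins and periostin rose, while elastin, tenascin C, thrombospondin 1, osteopontin and ECM1 fell. The nidogen genes NID1 and NID2 fell too. The laminin genes were split, as LAMB1 and LAMC1 fell while LAMB2 rose and LAMA4 rose by 72 h. Of the 57 matched genes 54 reached an FPKM of 1 in at least 3 libraries and were tested with limma on log2(FPKM + 1), where a call is an adjusted p below 0.05 over all 11063 genes tested. At 48 h, 22 of the 54 rose and 16 fell, so that 70.4% were called against 49.9% of all tested genes. Among all genes 27.6% rose and 22.4% fell. At 72 h against 0 h, 25 rose and 15 fell, or 74.1% against 45.5% of all genes, of which 23.0% rose and 22.5% fell. At 72 h against 48 h, 18 were higher and 3 lower, or 38.9% called against 25.4% of all genes. There the background ran the other way, with 9.17% of all genes higher and 16.3% lower. The libraries of both groups did not overlap for 41 of the 54 genes at 48 h, against 60.0% of all tested genes, for 42 at 72 h, against 58.6%, and for 22 between the later times, against 38.9%. Each pair of these comparisons shares the libraries of 1 time, so their results are given side by side and not as independent of each other.

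The median log2 change of the 54 genes was 0.12 at 48 h, 0.19 at 72 h and 0.12 from 48 h to 72 h. Over all tested genes it was 0.02, -0.008 and -0.033. Scaling every library to an equal FPKM sum moved the 48 h median of these genes to 0.00. At 48 h 55.2% of all calls were higher as deposited and 34.7% at equal sums. From 48 h to 72 h the share was 36.0% as deposited and 55.9% at equal sums. Of the 38 matrix genes called at 48 h, 33 were still called in the same direction at equal sums, as were 37 of 40 at 72 h and all 21 from 48 h to 72 h.

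**Figure D1:**
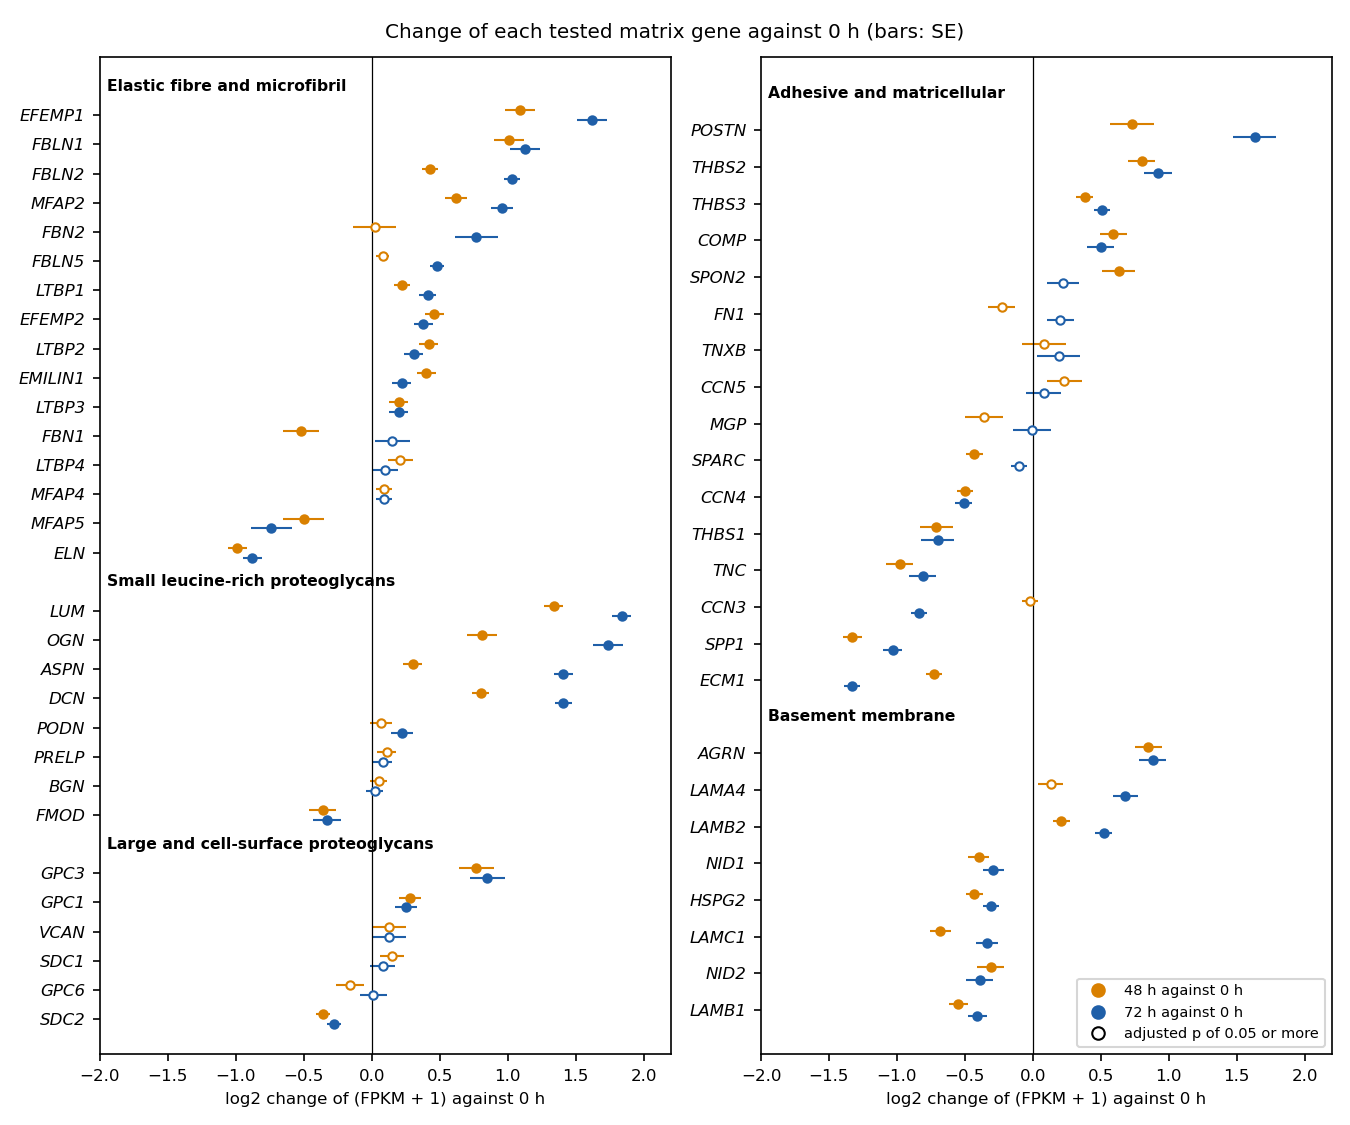
Log2 change of (FPKM + 1) of each of the 54 tested genes at 48 h (orange) and 72 h (blue) against the 3 libraries at 0 h, grouped by class, with the standard error of the fit as bars and open points where the adjusted p was 0.05 or more. LUM at 1.34 and 1.84 stands at the high end, SPP1 at -1.33 and -1.03 and ECM1 at -0.73 and -1.33 at the low end.

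The tested genes spanned a wide range of levels. A mean FPKM of at least 10 over the 9 libraries was reached by 44 of them, at least 100 by 18 and at least 1000 by 5. The 57 matched genes together made up 3.13% of all FPKM in the 0 h libraries, 2.26% in the 48 h libraries and 2.79% in the 72 h libraries. Their summed level was 15220 to 15580 FPKM at 0 h, 11670 to 12995 at 48 h and 13746 to 14723 at 72 h, so the libraries of the 3 times did not overlap. SPARC, THBS1, FN1, FMOD, BGN and TNC, which had the highest means over the 9 libraries, held 77.5% of that total in the 0 h libraries, 71.6% at 48 h and 69.4% at 72 h. Without these 6 genes the sum was 3476 ± 43.5 FPKM at 0 h (mean ± SD, n = 3), 3483 ± 116 at 48 h and 4372 ± 72.4 at 72 h. As a share of each library's FPKM sum, the remaining genes held 0.703% ± 0.016 at 0 h, 0.641% ± 0.043 at 48 h and 0.851% ± 0.0093 at 72 h (mean ± SD, n = 3). Their mean was thus level at 48 h as deposited but lower as a share, and neither was tested.

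The elastic fibre class summed to 1064 to 1094 FPKM at 0 h, 1235 to 1279 at 48 h and 1403 to 1507 at 72 h. The adhesive and matricellular class was far more abundant and summed to 9614 to 9787, 6252 to 7458 and 7597 to 8289. The small leucine-rich proteoglycans summed to 3230 to 3409, 3029 to 3166 and 3471 to 3854, and the basement membrane class to 666 to 695, 474 to 566 and 586 to 614. The large and cell-surface proteoglycans had means of 645 FPKM at 0 h, 547 at 48 h and 570 at 72 h.

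**Figure D2:**
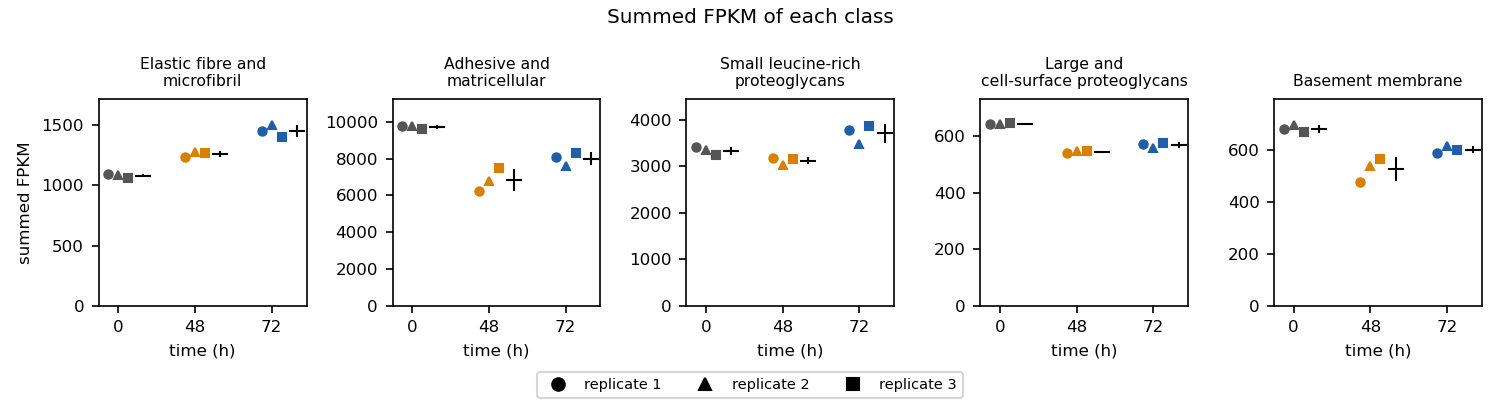
Summed FPKM of the matched genes of each class in every library against time in hours, with the group mean and SD (n = 3) drawn as a cross beside the points. The elastic fibre class stepped up at each time, whereas the adhesive class dropped from above 9614 FPKM in each 0 h library to between 6252 and 8289 in the later ones.

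The small leucine-rich proteoglycans included LUM and OGN, whose means at 72 h were 3.80 and 4.11 times those at 0 h. Of 8 tested genes, 4 rose and 1 fell at 48 h, and 5 rose and 1 fell at 72 h. From 48 h to 72 h, 4 were higher and 0 lower, and the 3 median log2 changes were 0.20, 0.81 and 0.33. At 48 h 62.5% of the class (5 of 8) was called, against 49.9% of all tested genes. At 72 h 75.0% (6 of 8) was called, against 45.5%. Between the later times 4 of the 8 were called, against 25.4% of all tested genes. The 4 genes that rose at 48 h, LUM, DCN, OGN and ASPN, were also the 4 that rose again between 48 h and 72 h.

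LUM (lumican, ENSSSCG00000000916), a keratan sulfate proteoglycan that spaces collagen fibrils in cornea and skin, was at 12.14, 13.01 and 12.95 FPKM in 0 h replicates 1 to 3, at 33.5, 33.4 and 34.5 at 48 h and at 44.1, 52.9 and 47.8 at 72 h. The 3 groups did not overlap. The log2 change was 1.34 ± 0.07 (SE) at 48 h (adjusted p = 4.69e-07), 1.84 ± 0.07 at 72 h (1.96e-08) and 0.50 ± 0.07 between them (adjusted p = 0.000746). DCN (decorin, ENSSSCG00000000915), which binds collagen and also holds growth factors such as TGF-beta, was at 25.6, 27.6 and 26.2 FPKM at 0 h, 49.8, 44.4 and 46.5 at 48 h and 72.7, 73.0 and 70.8 at 72 h. Again each group lay wholly above the one before it. The log2 changes were 0.80 ± 0.06 at 48 h (adjusted p = 4.2e-06), 1.41 ± 0.06 at 72 h (2.62e-08) and 0.61 ± 0.06 between the later times.

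OGN (osteoglycin, also called mimecan, ENSSSCG00000034607), a small proteoglycan found in bone and connective tissue, was at 2.89, 3.11 and 3.38 FPKM at 0 h, 5.12, 7.01 and 6.62 at 48 h and 12.7, 11.4 and 14.4 at 72 h. Its log2 change was 0.81 ± 0.11 at 48 h and 1.74 ± 0.11 at 72 h (adjusted p = 0.000264 and 5.99e-07), and 0.94 ± 0.11 from 48 h to 72 h. ASPN (asporin, ENSSSCG00000008072), which competes with decorin for collagen and binds TGF-beta, was far more abundant, at 370, 382 and 364 FPKM at 0 h, 423, 462 and 495 at 48 h and 968, 963 and 1037 at 72 h. All 3 libraries at 72 h stood far above every earlier one. Most of its rise lay between 48 h and 72 h, with a log2 change of 0.30 ± 0.07 at 48 h (adjusted p = 0.0034), 1.41 ± 0.07 at 72 h (4.91e-08) and 1.10 ± 0.07 between them (5.48e-06). The 48 h call of ASPN was lost at equal FPKM sums (0.17, adjusted p = 0.101) and under quantile normalization (0.17, adjusted p = 0.106), while its later calls were kept under both.

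FMOD and BGN, with the highest mean levels of this class, did not rise. FMOD (fibromodulin), which directs collagen crosslinking and fibril growth, was at 1796, 1764 and 1738 FPKM at 0 h, 1410, 1281 and 1449 at 48 h and 1540, 1160 and 1535 at 72 h. It fell by 0.36 on the log2 scale at 48 h (SE 0.10, adjusted p = 0.014) and by 0.33 at 72 h (adjusted p = 0.0199). Replicate 2 was the lowest library at both later times. The 48 h call was lost without 48 h replicate 2 (-0.30, adjusted p = 0.0577). The 72 h call was lost without 0 h replicate 1 (-0.32, 0.0599) or 2 (-0.34, 0.0516). Without 72 h replicate 2 the change was -0.20 and still called (adjusted p = 0.0345). Both were also lost with no filter on low values (0.054 and 0.0712). Under quantile normalization they were larger, at -0.59 and -0.51.

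BGN (biglycan), the closest relative of decorin, was at 1162, 1119 and 1044 FPKM at 0 h, 1204, 1156 and 1076 at 48 h and 1101, 1163 and 1103 at 72 h. The groups overlapped. The log2 changes were 0.05 ± 0.06 and 0.02 ± 0.06. Under quantile normalization the 48 h value was -0.20 and called lower (adjusted p = 0.0137). PRELP, which anchors basement membranes to collagen, had means of 17.0, 18.3 and 17.9 FPKM and was not called. PODN (podocan) had means of 24.0, 25.3 and 28.2 FPKM and rose by 0.22 at 72 h (adjusted p = 0.0409). That call was lost in 6 of the other settings, among them equal FPKM sums (0.17, 0.125), no 0 h replicate 1 (0.20, 0.125) or 2 (0.21, 0.11), and no 72 h replicate 1 (0.25, 0.0553) or 2 (0.16, 0.143).

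**Figure D3:**
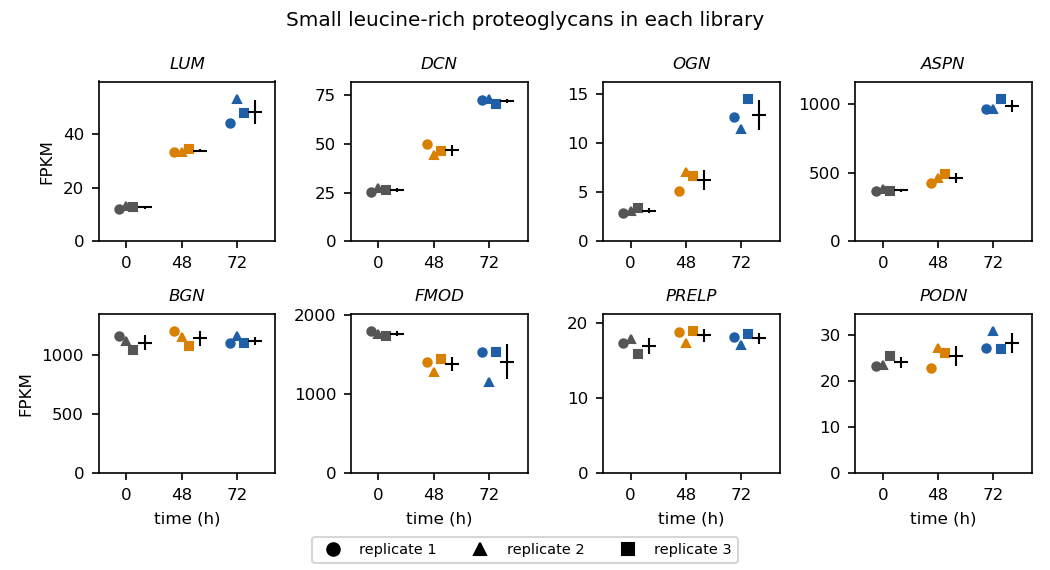
FPKM of the 8 small leucine-rich proteoglycan genes in each library against time in hours, with a linear axis from 0 for each gene and the mean and SD (n = 3) as a cross. LUM, DCN, OGN and ASPN climb at each step, BGN stays between 1044 and 1204 FPKM, and FMOD is lower at 48 h and 72 h with replicate 2 at the bottom.

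LUM, DCN, OGN and ASPN lie in 2 pairs on the chromosomes. In the RefSeq annotation of Sscrofa11.1, DCN (chromosome 5, 91678601 to 91713925) and LUM (chromosome 5, 91748871 to 91756381) are neighbours, within 77.8 kb. KERA and EPYC, proteoglycan genes of cornea and cartilage beside LUM, had means of at most 0.0333 FPKM. OGN (chromosome 3, 42116521 to 42135940) and ASPN (chromosome 3, 42165553 to 42192902) lie within 76.4 kb, with OMD between them and ECM2 next to ASPN. Neither OMD nor ECM2 was on the list, and both were looked up after the values of OGN and ASPN were seen.

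OMD (osteomodulin), a proteoglycan of mineralised tissue, had means of 1.72 ± 0.245, 3.53 ± 0.17 and 4.90 ± 0.592 FPKM and rose by 0.74 ± 0.10 at 48 h and 1.12 ± 0.10 at 72 h. ECM2, a related matrix protein, had means of 9.52 ± 0.544, 11.7 ± 0.752 and 18.7 ± 4.13 FPKM, with a log2 change of 0.28 ± 0.13 at 48 h (adjusted p = 0.108) and 0.88 ± 0.13 at 72 h (adjusted p = 0.000323). All 4 of these genes lie inside the span of CENPP, a centromere gene (chromosome 3, 42053074 to 42309745), which fell from 11.8 ± 1.31 to 6.68 ± 0.881 and 3.14 ± 0.383 FPKM. The labels do not state whether strand was used in counting, and genes that overlap may share reads. FMOD and PRELP are neighbours on chromosome 9, and FMOD fell while PRELP was not called at either time.

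In the elastic fibre and microfibril class, most accessory genes rose and elastin itself fell. Of 16 tested genes, 9 rose and 3 fell at 48 h, 11 rose and 2 fell at 72 h, and 7 were higher and 0 lower at 72 h than at 48 h. The median log2 changes were 0.21, 0.35 and 0.11. The class shares called were 75.0%, 81.2% and 43.8%, against 49.9%, 45.5% and 25.4% of all tested genes. The counts include FBLN1 and MFAP5, which passed the filter on low values through some times only.

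ELN, elastin, was at 34.6, 30.9 and 32.0 FPKM at 0 h, 15.0, 17.3 and 15.2 at 48 h and 17.6, 17.8 and 16.1 at 72 h. Every later library was below every 0 h library, and the mean at 48 h was 0.488 times that at 0 h. The log2 change was -0.99 ± 0.07 at 48 h (adjusted p = 4.41e-06) and -0.88 ± 0.07 at 72 h (4.21e-06), with no call between the later times (0.11, adjusted p = 0.298). MFAP5, which encodes the microfibril protein MAGP-2, also fell, from 1.64, 1.22 and 1.52 FPKM at 0 h to 0.640, 1.17 and 0.460 at 48 h and 0.310, 0.580 and 0.520 at 72 h. Its log2 change was -0.50 ± 0.15 at 48 h (adjusted p = 0.0162) and -0.74 ± 0.15 at 72 h (0.00193), or -0.94 and -1.48 with a pseudocount of 0.1. MFAP5 passed the filter on low values only through the earlier times, so a difference from 72 h was built into its being tested. The 48 h call was lost without 0 h replicate 1 (-0.45, 0.0558), 48 h replicate 1 (-0.46, 0.0522) or 48 h replicate 3 (-0.38, 0.0544), and with library weights (-0.20, 0.0808).

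All 5 fibulin genes rose by 72 h, though FBLN1 was tested only through its later libraries. EFEMP1 (fibulin 3), which had the largest change of the class at 72 h, was at 2.38, 2.09 and 1.85 FPKM at 0 h, 4.66, 5.89 and 6.43 at 48 h and 8.26, 8.44 and 8.96 at 72 h. The groups did not overlap. The log2 change was 1.09 ± 0.11 at 48 h (adjusted p = 2.36e-05), 1.62 ± 0.11 at 72 h (6.17e-07) and 0.53 ± 0.11 between them (adjusted p = 0.00557). FBLN2, a fibulin that binds fibronectin, fibrillin and laminin, was at 140, 137 and 131 FPKM at 0 h, 174, 190 and 186 at 48 h and 284, 286 and 267 at 72 h. It had the highest mean level of the class over the 9 libraries and reached 2.06 times its 0 h mean at 72 h. The log2 changes were 0.43 ± 0.06 at 48 h (0.25 under quantile normalization), 1.03 ± 0.06 at 72 h (adjusted p = 1.4e-07) and 0.60 ± 0.06 between them.

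FBLN1 was barely present at 0 h, at 0.810, 0.870 and 0.730 FPKM, and stood at 2.71, 2.69 and 2.47 at 48 h and 2.65, 3.73 and 2.52 at 72 h. Its log2 change of 1.01 ± 0.11 and 1.13 ± 0.11 was 1.59 and 1.75 with a pseudocount of 0.1. It passed the filter on low values only through the later libraries, as did GPC3, so that a difference was built into its being tested. EFEMP2 (fibulin 4), needed to bring lysyl oxidase to elastin, was at 162, 159 and 160 FPKM at 0 h, 242, 223 and 201 at 48 h and 206, 218 and 204 at 72 h. Unlike FBLN2, it did not pass the test between 48 h and 72 h, where the groups overlapped (-0.08, adjusted p = 0.416). Its rise of 0.46 ± 0.07 at 48 h was 0.26 after a correction for gene span within every library and 0.30 under quantile normalization. FBLN5, which links elastin to cell-surface integrins, had means of 30.6 ± 0.782, 32.4 ± 0.316 and 43.1 ± 1.43 FPKM, with a log2 change of 0.08 at 48 h (adjusted p = 0.249) and 0.48 ± 0.05 at 72 h (3.36e-05). After the gene span correction the 48 h change was 0.22 and called (adjusted p = 0.00684).

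The fibrillins, the backbone of microfibrils, followed another course. FBN1 was at 186, 199 and 184 FPKM at 0 h, 104, 135 and 165 at 48 h and 201, 217 and 216 at 72 h. It fell by 0.52 on the log2 scale at 48 h (SE 0.13, adjusted p = 0.00708) and was not called at 72 h against 0 h (0.15, adjusted p = 0.354). It was higher at 72 h than at 48 h by 0.67 ± 0.13 (adjusted p = 0.00422). FBN2, the fibrillin prominent in embryonic tissue, was at 5.10, 5.17 and 4.83 FPKM at 0 h, 3.49, 5.49 and 6.83 at 48 h and 9.45, 9.49 and 8.90 at 72 h. Its changes were 0.02 ± 0.16 at 48 h and 0.77 ± 0.16 at 72 h (adjusted p = 0.00241). For both fibrillins 48 h replicate 1 was the lowest library and replicate 3 the highest of that time.

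Among the microfibril-associated genes, MFAP2, which encodes MAGP-1, had means of 59.2 ± 3.39, 91.7 ± 5.87 and 116 ± 10.9 FPKM and rose by 0.62 ± 0.08 and 0.96 ± 0.08. MFAP4 had means of 93.8, 99.8 and 99.8 FPKM and was not called, but after the gene span correction it was called lower at 48 h (-0.23, adjusted p = 0.00257) and higher from 48 h to 72 h (0.16, adjusted p = 0.0301). EMILIN1, a glycoprotein at the elastin and microfibril interface, had means of 142, 188 and 166 FPKM and rose by 0.40 ± 0.07 at 48 h, which was 0.20 to 0.27 at equal FPKM sums, after the gene span correction and under quantile normalization. Its rise of 0.22 at 72 h (adjusted p = 0.0336) was lost under quantile normalization (0.11, 0.151), at equal sums (0.16, 0.0525), with no filter (0.0653) and without any of 5 libraries, namely 0 h replicates 1, 2 and 3 and 72 h replicates 1 and 2 (0.18 to 0.23, adjusted p = 0.0638 to 0.121).

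The latent TGF-beta binding proteins hold the inactive growth factor on microfibrils. LTBP1 had means of 113, 132 and 151 FPKM and rose by 0.22 at 48 h and 0.41 ± 0.06 at 72 h. At 48 h its change was 0.08 at equal FPKM sums and 0.06 under quantile normalization, neither called, and 0.37 after the gene span correction. Its difference of 0.19 between 48 h and 72 h (adjusted p = 0.0467) was lost without any single library other than 48 h replicate 3 (0.15 to 0.21), and was 0.04 after the gene span correction. LTBP2 had means of 76.8, 103 and 95.6 FPKM and rose by 0.42 ± 0.07 and 0.31 ± 0.07. LTBP3 had means of 21.7, 24.9 and 25.1 FPKM and rose by 0.20 at both times (adjusted p = 0.0472 and 0.0445). The 48 h call was lost in 11 settings and the 72 h call in 7, among them equal FPKM sums (0.07 and 0.15). The 48 h call was lost without 0 h replicate 1 or 3, any 48 h replicate or 72 h replicate 2 (0.17 to 0.20, adjusted p = 0.0506 to 0.147). The 72 h call was lost without 0 h replicate 1 or 3, 48 h replicate 2 or 72 h replicate 1 or 2 (0.16 to 0.20, adjusted p = 0.064 to 0.158). LTBP4, at means of 17.6, 20.4 and 18.9 FPKM, was not called, but was called higher at 48 h without 72 h replicate 2 (0.21, adjusted p = 0.0331).

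The adhesive and matricellular glycoproteins included the most abundant genes of the whole set and split almost evenly. Of 16 tested genes 5 rose and 6 fell at 48 h, and 4 rose and 6 fell at 72 h. From 48 h to 72 h, 4 were higher and 3 lower, and the 3 median log2 changes were -0.13, 0.04 and 0.12. In the 3 comparisons 68.8%, 62.5% and 43.8% of the class were called, against 49.9%, 45.5% and 25.4% of all tested genes. SPARCL1, SPON1 and MATN2 did not reach the filter, with means of 0.0567 to 0.140, 0.190 to 0.613 and 0.127 to 0.280 FPKM.

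THBS1 and TNC, both among the 6 genes with the highest means, fell at both times. THBS1, thrombospondin 1, which activates latent TGF-beta and inhibits vessel growth, was at 3292, 3373 and 3383 FPKM at 0 h, 1742, 2054 and 2411 at 48 h and 2171, 1782 and 2273 at 72 h. Every later library lay below every 0 h library. The log2 change was -0.71 ± 0.12 at 48 h (adjusted p = 0.000718) and -0.70 ± 0.12 at 72 h (0.000662). TNC, tenascin C, a glycoprotein of embryonic and wounded tissue, was at 1086, 1095 and 1066 FPKM at 0 h, 506, 549 and 596 at 48 h and 671, 519 and 680 at 72 h. It fell to 0.508 times its 0 h mean at 48 h (-0.98 ± 0.10, adjusted p = 3.24e-05) and was also lower at 72 h (-0.81 ± 0.10, adjusted p = 7.95e-05).

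SPP1, osteopontin, a secreted integrin ligand, was at 218, 217 and 215 FPKM at 0 h, 87.5, 82.3 and 87.5 at 48 h and 109, 95.8 and 113 at 72 h. It had the largest fall of the set at 48 h, of -1.33 ± 0.07 (adjusted p = 3.24e-07), and was higher at 72 h than at 48 h by 0.30 ± 0.07 (adjusted p = 0.0085) while still below 0 h (-1.03 ± 0.07). ECM1, a secreted protein of skin that binds perlecan and matrix proteases, was at 61.9, 61.3 and 61.2 FPKM at 0 h, 36.7, 36.0 and 37.0 at 48 h and 21.8, 25.0 and 24.8 at 72 h. It was the only tested gene of the 54 that was called lower in all 3 comparisons, at -0.73 ± 0.06, -1.33 ± 0.06 (adjusted p = 4.45e-08) and -0.60 ± 0.06.

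The CCN genes, which encode cysteine-rich signalling proteins of the matrix, did not share a course. CCN3 (also called NOV) had means of 43.5 ± 1.54, 42.8 ± 2.08 and 23.9 ± 1.34 FPKM, with a change of -0.02 at 48 h (adjusted p = 0.783) and a fall of 0.84 on the log2 scale at 72 h (SE 0.06, adjusted p = 1.76e-06). CCN4 (WISP1), a WNT target, had means of 68.4 ± 1.14, 48.2 ± 0.651 and 48.0 ± 2.95 FPKM and fell by 0.50 and 0.51. CCN5 (WISP2), at means of 1.49, 1.91 and 1.64 FPKM, was not called.

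POSTN had the largest rise of this class at 72 h. Periostin, which helps collagen fibrils assemble and crosslink, was at 21.4, 21.6 and 19.2 FPKM at 0 h, 29.9, 38.8 and 36.6 at 48 h and 51.8, 87.8 and 63.3 at 72 h. The groups did not overlap although the 72 h libraries were widely spread. The log2 change was 0.73 ± 0.16 at 48 h (adjusted p = 0.00387), 1.63 ± 0.16 at 72 h (1.49e-05) and 0.90 ± 0.16 between them (adjusted p = 0.003).

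The thrombospondins moved apart. While THBS1 fell, THBS2, which regulates collagen fibrils and also restrains vessel growth, rose from 94.2, 94.8 and 89.2 FPKM at 0 h to 145, 172 and 170 at 48 h and 166, 206 and 161 at 72 h, by 0.80 ± 0.10 and 0.92 ± 0.10 (adjusted p = 9.89e-05 and 2.21e-05). THBS3, a pentameric thrombospondin, had means of 25.1, 32.9 and 36.0 FPKM and rose by 0.38 ± 0.06 and 0.51 ± 0.06, the first of which was 0.25 at equal FPKM sums and 0.22 after the gene span correction. COMP, the pentameric thrombospondin of cartilage and tendon, had means of 1.07, 2.12 and 1.93 FPKM and rose by 0.59 ± 0.10 and 0.50 ± 0.10, or 0.93 and 0.80 with a pseudocount of 0.1, and by 0.38 at 48 h after the gene span correction. Per length of gene, THBS1 remained the most abundant of the 4 at every time, at a mean of 2076 FPKM at 72 h beside 178 for THBS2.

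SPARC, a collagen-binding protein, was at 3126, 3031 and 2970 FPKM at 0 h, 2286, 2204 and 2293 at 48 h and 2940, 2696 and 2880 at 72 h. It fell by 0.43 on the log2 scale at 48 h (SE 0.06, adjusted p = 0.000185) and was higher again at 72 h than at 48 h by 0.33 ± 0.06 (adjusted p = 0.00262). At 72 h it was not called against 0 h (-0.10, adjusted p = 0.177), but was called lower at equal FPKM sums (-0.16, adjusted p = 0.0461). FN1, fibronectin, the main adhesive scaffold of the matrix, was at 1629, 1672 and 1591 FPKM at 0 h, 1171, 1428 and 1600 at 48 h and 1752, 1973 and 1901 at 72 h. The 48 h libraries ranged from far below the 0 h level to within it. FN1 was not called at 48 h (-0.23, adjusted p = 0.0745). It was called lower without 48 h replicate 3 (-0.33), at equal FPKM sums (-0.37), with median ratio scaling (-0.26) and under quantile normalization (-0.49). It was higher at 72 h than at 48 h by 0.43 ± 0.10 (adjusted p = 0.0109). Against 0 h the 72 h level was not called, except without 48 h replicate 1 (0.20, adjusted p = 0.0242) and after the gene span correction (0.27, adjusted p = 0.0164).

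SPON2, a secreted spondin, had means of 58.7 ± 2.72, 91.5 ± 10.1 and 69.3 ± 12.2 FPKM. It rose by 0.63 ± 0.12 at 48 h (0.34 after the gene span correction) and was not called at 72 h against 0 h (0.22). Without 72 h replicate 3 the 72 h change was called (0.36, adjusted p = 0.0126). Its fall of 0.41 from 48 h to 72 h (adjusted p = 0.0319) was lost after the gene span correction (-0.25), with no filter (0.0863), and without 48 h replicate 1 or 2 or 72 h replicate 1 or 3 (-0.44 to -0.26, adjusted p = 0.0612 to 0.103). MGP, which keeps soft tissue from calcifying, had means of 22.8, 17.6 and 23.0 FPKM and was not called (-0.36 at 48 h, adjusted p = 0.0568). It was called lower at 48 h in 10 of the other settings, among them equal FPKM sums (-0.49, adjusted p = 0.0182), the gene span correction (-0.64, 0.00504) and no 48 h replicate 1 (-0.47, 0.0292). Without 72 h replicate 2 it was called higher at 72 h than at 48 h (0.53, adjusted p = 0.0079). TNXB was not called, at means of 0.813, 0.927 and 1.10 FPKM.

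**Figure D4:**
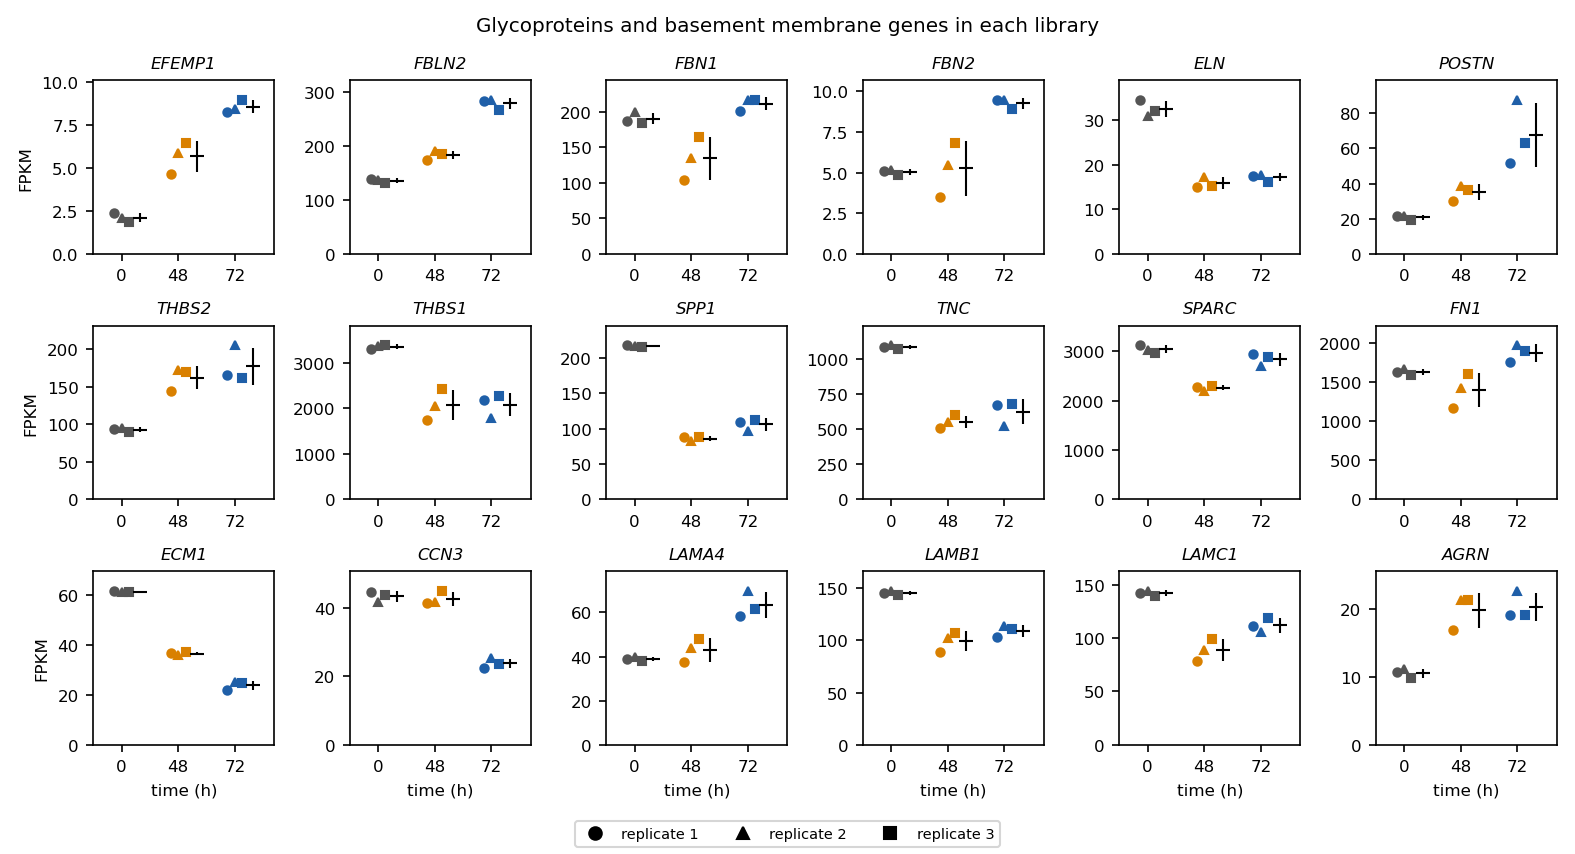
FPKM in each library against time in hours for 18 glycoprotein and basement membrane genes, with a linear axis from 0 for each gene and the mean and SD (n = 3) as a cross. EFEMP1, FBLN2 and POSTN climb at both steps, ELN, TNC and THBS1 drop by 48 h and do not return by 72 h, and FBN1, SPARC and FN1 are lowest at 48 h.

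Among the large and cell-surface proteoglycans, 3 of 6 tested genes were called at 48 h and at 72 h, a share near the background of 49.9% and 45.5% of all tested genes. In each comparison with 0 h 2 rose and 1 fell, 0 were called from 48 h to 72 h, and the median log2 changes were 0.14, 0.10 and 0.04. SDC2, a syndecan whose heparan sulfate chains bind growth factors, was at 518, 516 and 524 FPKM at 0 h, 403, 406 and 402 at 48 h and 441, 402 and 444 at 72 h. The later libraries all lay below the 0 h libraries. SDC2 fell by 0.36 on the log2 scale at 48 h (SE 0.05, adjusted p = 0.000356, and -0.21 after the gene span correction) and by 0.28 at 72 h (adjusted p = 0.00169).

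The glypicans are heparan sulfate proteoglycans held on the membrane by a lipid anchor. GPC1 was at 41.0, 43.5 and 41.6 FPKM at 0 h, 56.2, 49.4 and 48.2 at 48 h and 48.4, 55.6 and 47.2 at 72 h. It rose by 0.28 ± 0.08 and 0.25 ± 0.08. Both calls were weak. The first was lost at equal FPKM sums (0.14, adjusted p = 0.0923) and under quantile normalization (0.15, 0.0783). The second was lost without 0 h replicate 1 (0.24, 0.0706), 0 h replicate 3 (0.25, 0.0639) or 72 h replicate 2 (0.18, 0.0788). GPC3, a glypican of fetal tissues that restrains growth, was at 0.420, 0.260 and 0.410 FPKM at 0 h, 1.55, 1.12 and 1.33 at 48 h and 1.06, 1.90 and 1.48 at 72 h. It rose by 0.77 ± 0.13 and 0.85 ± 0.13, or 1.64 and 1.75 with a pseudocount of 0.1. GPC3 is counted among the genes of this class that rose, but passed the filter on low values only through the later libraries. VCAN (versican, the large chondroitin sulfate proteoglycan that binds hyaluronan), SDC1 and GPC6 were not called, with means of 34.2 to 37.9, 40.4 to 44.9 and 7.50 to 8.55 FPKM. VCAN was called higher at 48 h after the gene span correction (0.29, adjusted p = 0.0308). Without 48 h replicate 3, GPC6 was called lower at 48 h (-0.27, adjusted p = 0.0281) and higher from 48 h to 72 h (0.28, 0.0381). SDC1 was called higher at 48 h with library weights (0.24, adjusted p = 0.000706).

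In the basement membrane class more genes fell than rose, and the laminin chains went different ways. Of 8 tested genes, 2 rose and 5 fell at 48 h, 3 rose and 5 fell at 72 h, and 3 were higher and 0 lower at 72 h than at 48 h. The median log2 changes were -0.35, -0.30 and 0.13. The class shares called were 87.5%, 100% and 37.5%, against 49.9%, 45.5% and 25.4% of all tested genes. LAMB1, a laminin beta chain, was at 145, 148 and 143 FPKM at 0 h, 89.0, 103 and 107 at 48 h and 103, 114 and 111 at 72 h. It fell by 0.55 and 0.41 on the log2 scale (adjusted p = 0.000171 and 0.000871). LAMC1, the gamma chain found in most laminins, was at 142, 145 and 139 FPKM at 0 h, 78.2, 88.6 and 99.0 at 48 h and 111, 106 and 119 at 72 h. It fell by 0.68 at 48 h (SE 0.08, adjusted p = 9.45e-05), and at 72 h was still below 0 h (-0.34) but higher than at 48 h by 0.34 ± 0.08 (adjusted p = 0.0137).

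LAMA4, the alpha chain of mesenchymal and vascular laminins, was at 38.9, 39.8 and 38.1 FPKM at 0 h, 37.3, 43.9 and 48.0 at 48 h and 58.4, 70.0 and 61.7 at 72 h. It overlapped 0 h at 48 h (0.13, adjusted p = 0.25) and rose by 0.68 ± 0.09 at 72 h (adjusted p = 0.000148). The 48 h change was called without 48 h replicate 1 (0.23, adjusted p = 0.0397) and after the gene span correction (0.29, 0.0105). LAMB2, the alternative beta chain, had means of 30.4, 35.5 and 44.2 FPKM and rose by 0.21 at 48 h and 0.52 ± 0.06 at 72 h. Its 48 h call was lost at equal FPKM sums (0.08), under quantile normalization (0.13) and after the gene span correction (0.06).

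NID1 and NID2 encode nidogens, which join laminin to type IV collagen. NID1 was at 142, 148 and 140 FPKM at 0 h, 96.3, 108 and 124 at 48 h and 115, 122 and 115 at 72 h. It fell by 0.40 (-0.25 after the gene span correction) and 0.29, the latter call lost without 0 h replicate 2 (-0.26, adjusted p = 0.052). NID2 had means of 68.5, 55.4 and 52.1 FPKM and fell by 0.31 and 0.39. Its 48 h call was lost without any one of the 0 h libraries (-0.31, adjusted p = 0.0589 to 0.0628), without 48 h replicate 1 (-0.18, 0.0603), with no filter (0.0628) and after the gene span correction (-0.19, 0.0958).

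HSPG2 (perlecan) and AGRN (agrin), the heparan sulfate proteoglycans of basement membranes, went in opposite directions. HSPG2 had means of 100 ± 4.33, 73.8 ± 2.77 and 80.6 ± 3.57 FPKM and fell by 0.43 (-0.28 after the gene span correction) and 0.31. AGRN, which is known for organising the neuromuscular synapse, was at 10.7, 11.1 and 9.75 FPKM at 0 h, 16.8, 21.3 and 21.2 at 48 h and 19.1, 22.7 and 19.1 at 72 h. Its rise of 0.85 ± 0.10 and 0.88 ± 0.10 (adjusted p = 9.55e-05 and 4.55e-05) was the largest change of the class.

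Set out by course over the 3 times, 21 of the 54 tested genes rose at both later times, against 17.1% of all tested genes, and 14 fell at both, against 14.7%. Among the 21, 10 were also higher at 72 h than at 48 h, namely FBLN2, EFEMP1, MFAP2, LTBP1, POSTN, LUM, DCN, OGN, ASPN and LAMB2. The other 11, which include EFEMP2, EMILIN1, LTBP2, THBS2, THBS3, GPC1 and AGRN, did not pass the test between the later times. Of these, EMILIN1 was called lower there without 48 h replicate 3 (-0.24, adjusted p = 0.0368) and THBS3 higher at equal FPKM sums (0.21, 0.0359). Among the 14, 11 did not pass the test between 48 h and 72 h, while SPP1 and LAMC1 were higher at 72 h and ECM1 lower. Of the 11, TNC was called higher without 72 h replicate 2 (0.30, adjusted p = 0.0157), NID1 without 48 h replicate 3 (0.20, 0.0371) and HSPG2 at equal FPKM sums (0.21, 0.0306). FBN2, FBLN5 and LAMA4 were called higher at 72 h against both earlier times and not at 48 h, and FBN1 and SPARC were called lower at 48 h, higher from 48 h to 72 h and not at 72 h against 0 h. FBLN1, GPC3 and TNXB had no 0 h library at 1 FPKM and MFAP5 no 72 h library, so each passed the filter through other times. Leaving these out, 20 of 50 genes rose and 15 fell at 48 h, and 23 rose and 14 fell at 72 h.

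The 3 libraries at 48 h were ordered differently by different genes. In 17 of the 54 genes 48 h replicate 1 was the lowest and replicate 3 the highest of the 3 libraries (31.5%, against 27.0% of all tested genes), and in 9 it was the reverse (16.7%, against 26.4%). The 17 include FBN1, FBN2, FN1, TNC, THBS1, ASPN, LAMA4, LAMB1, LAMC1, NID1 and NID2, and had a median gene span, introns included, of 108 kb over the 16 with a span. The 9 include EFEMP2, EMILIN1, MFAP2, BGN and LAMB2, and had a median span of 12.3 kb over 7. Over the 51 tested matrix genes with a span the median was 30.5 kb. The share of 31.5% is near that of all tested genes, whose spans in these orders were not compared. The part of gene span in the 48 h values was not tested beyond removing its trend from each library, which left 34 of the 37 called genes with a span called at 48 h and 38 of 38 at 72 h.

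The other lists, of genes that build, bind or cut these molecules, are read against the 49.9% of all tested genes called at 48 h and the 45.5% called at 72 h. Among enzymes of glycosaminoglycan synthesis, which make the sugar chains of proteoglycans, 12 of 36 tested genes rose and 9 fell at 48 h, and 11 rose and 4 fell at 72 h, or 58.3% and 41.7% called, near that background. SULF1, which trims sulfate from heparan sulfate, rose from 16.9 ± 0.485 to 28.4 ± 3.69 and 35.4 ± 6.84 FPKM (0.71 ± 0.13 and 1.01 ± 0.13). CSGALNACT1, which starts chondroitin sulfate chains, rose from 3.71 ± 0.588 to 5.83 ± 1.44 and 6.93 ± 1.24. In the hyaluronan list 6 of 10 rose and 1 fell at 48 h, and 2 rose and 1 fell at 72 h, so that 7 and 3 of the 10 were called. CEMIP, which degrades hyaluronan, rose from 10.3 ± 0.469 to 20.0 ± 0.620 and 42.4 ± 3.47 FPKM (0.89 ± 0.07 and 1.93 ± 0.07), while HMMR, a hyaluronan receptor that also acts on the mitotic spindle, fell from 17.5 ± 0.903 to 5.07 ± 0.841 and 2.90 ± 0.375.

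Of 17 tested receptors for the matrix 2 rose and 9 fell at 48 h, and 3 rose and 7 fell at 72 h (64.7% and 58.8% called). ITGB5, an integrin beta chain, rose from 16.5 ± 0.150 to 36.5 ± 3.58 and 41.8 ± 5.52 FPKM (1.09 ± 0.09 and 1.28 ± 0.09), and ITGA1, the alpha chain of a collagen and laminin receptor, fell from 10.1 ± 0.839 to 3.24 ± 1.14 and 4.99 ± 0.208. Among other genes of elastic fibre assembly and crosslinking 8 of 15 rose and 3 fell at each time (73.3% called). TGFBI, an adhesive protein of the matrix, rose from 159 ± 6.83 to 256 ± 3.27 and 371 ± 20.0 FPKM (0.69 ± 0.06 and 1.22 ± 0.06), and ADAMTS10, a fibrillin-binding protease, from 11.9 ± 0.150 to 16.8 ± 1.45 and 21.4 ± 2.40.

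Among proteases and their inhibitors 6 of 15 rose and 5 fell at each time (73.3% called). PCOLCE, an enhancer of procollagen cleavage, rose from 62.8 ± 3.26 to 112 ± 9.69 and 152 ± 4.32 FPKM, whereas TIMP3, an inhibitor bound to the matrix, fell from 118 ± 0.905 to 65.9 ± 8.82 and 51.3 ± 10 FPKM. Of 13 other basement membrane genes 2 rose and 7 fell at 48 h, and 4 rose and 7 fell at 72 h (69.2% and 84.6% called). COL18A1, the collagen that carries endostatin, rose from 37.5 ± 0.380 to 80.5 ± 3.71 and 59.8 ± 11.6 FPKM, and COL4A1, a chain of the main basement membrane collagen, fell from 338 ± 11 to 200 ± 5.20 and 175 ± 4.59. Of 14 genes of TGF-beta activation and regulation 3 rose and 4 fell at each time, so that 7 of 14 were called, which is near the background. The ligand TGFB3 fell from 38.8 ± 1.21 to 20.2 ± 1.53 and 11.7 ± 1.26 FPKM (-0.91 ± 0.08 and -1.65 ± 0.08), and TGFB2 from 26.6 ± 0.510 to 10.2 ± 1.14 and 8.78 ± 0.941 (-1.30 ± 0.09 and -1.50 ± 0.09).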

How the data were processed

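RNA of 9 libraries of pig fibroblasts was measured after ribosomal RNA removal, per the labels' protocols. The deposited values are FPKM, which the authors computed for each gene in each library, per the file headers. The submitters' processing notes list DESeq2, RSEM 1.2.28, featureCounts 2.0.2, HISAT2 2.1.0 and the build Sscrofa11.1 but not what each did, so the source of the FPKM is unknown here. FPKM is scaled within a library, so a rise of abundant transcripts lowers all others. Groups and replicate numbers came from the labels.

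The 11063 of 30477 genes that reached an FPKM of 1 in 3 or more libraries entered on the scale log2(FPKM + 1), whose pseudocount of 1 understates changes of low genes. A single limma fit (limma 3.58.1 under R 4.3.3) took all 9 libraries, with no term but group, 6 residual degrees of freedom and empirical Bayes moderation with a trend. Adjusted p values are two-sided, Benjamini-Hochberg, over the 11063 genes. Errors beside log2 changes are SE, those beside FPKM are SD (n = 3). The median SE was 0.088, and no counting interval was computed since depth is unknown. Gene positions and spans were looked up by symbol in RefSeq (assembly Sscrofa11.1), and 84.1% of the tested genes had a span. The code was tested on simulated data.

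The gene list, its classes and the pathway and marker lists were chosen with earlier results of these data known, so no test over a list was made. In each class, values in every library were given by rule for the 4 called genes with the largest changes and the 2 highest levels, and genes moving against their class were named. Further genes were given in every library after their values were seen. Alternatives were another pseudocount (0.1), no filter, a mean FPKM of at least 5, quantile normalization, equal FPKM sums, median ratio scaling, library weights, a replicate block and leaving out each library. A gene span correction (subtracting a lowess trend on span from each library) was added after the data were seen.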

Additional observations from a re-analysis of the deposited data

How the results depend on the processing

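Over 54 genes, 3 comparisons and all settings, 3042 values were compared with those reported. Of these 2901 kept their call status (93 of them changed sign while called in neither fit), 76 lost a call and 62 gained one. The other 3 were not called as reported and gained a call with the opposite sign. They were BGN at 48 h under quantile normalization (-0.20) and MFAP4 after the gene span correction, at 48 h (-0.23) and from 48 h to 72 h (0.16). No change that was called as reported changed sign. The cause was not tested. Genes called higher at 48 h numbered 3048 as reported and 1959 at equal FPKM sums, and genes called lower 2476 and 3823 with library weights. The 48 h median of the matrix genes (0.12) was 0.00 at equal sums, 0.04 under quantile normalization, 0.09 with median ratio scaling, 0.17 after the gene span correction, 0.16 with library weights and 0.09 to 0.16 leaving out single libraries. From 48 h to 72 h, 2814 genes were called as reported, 5756 with library weights (2408 higher, 3348 lower), 1127 lower at equal sums, and 1727 to 3693 leaving out single libraries (589 to 1497 higher, 1138 to 2196 lower). Matrix genes called there were 35 with library weights (10 lower) and 1 was lower after the gene span correction; their median (0.12) was 0.19 at equal sums, 0.15 with median ratio scaling and under quantile normalization, 0.09 after the gene span correction, 0.10 with library weights and 0.08 to 0.13 leaving out single libraries. The library weights did not converge and rest mostly on 48 h replicate 2. The share of higher calls at 48 h was 49.8% with median ratio scaling and 49.2% under quantile normalization, at 72 h 50.5% as reported and 42.4% at equal sums, and from 48 h to 72 h 47.5% and 48.6%. Correlations of deviations from group means ran from -0.071 to 0.193 for same-numbered libraries and from -0.182 to 0.174 for the others. Whether replicate numbers pair the samples was not settled by these weak values. With a replicate block 5632 genes were called at 48 h, 5152 at 72 h and 3031 from 48 h to 72 h. Without it 5524, 5029 and 2814 were called. Under the block 158 of 162 values kept their call status, no call was lost and 4 were gained: LTBP4 (0.21) and MGP (-0.36) at 48 h, SPON2 at 72 h (0.22) and MGP from 48 h to 72 h (0.35). Depth is unknown, so how far counting error limits the genes near 1 FPKM cannot be given.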
